A study of Oryza sativa with 25 samples.

Results

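Transcripts shared by growing rice callus and root were the 200 probe sets, of 57194 on the array apart from controls, that stood highest in both of these tissues relative to shoot and young leaf. A probe set is the group of array probes that reports 1 transcript. They were chosen by the deposited intensities of growing callus, root, shoot and young leaf. Each intensity was raised by a small constant (10% of the overall median), the log2 was taken and averaged over the arrays of a group, and the score was the lower of the growing callus and root means minus the higher of the shoot and young leaf means. The probe sets of Adh2, PDC1, PDC2, ML and OsCCR1 were left out by the same rule, which removed 5 probe sets that scored above the limit. Levels in those 4 groups are therefore given as a description with no test. Only the callus arrays taken on regeneration medium played no part in the choice, and all tests below are between those. The normalization and the estimate of spread behind the tests did use all 25 arrays.

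The study measured rice (Oryza sativa) tissues on 25 Affymetrix Rice Genome Arrays. Growing callus, an undifferentiated cell mass raised from seeds on MS medium for 3 weeks at 30 °C, had 3 arrays, and callus moved from there to regeneration medium had 3 arrays at each of 2, 4, 6 and 8 days. Whole root, collected in a greenhouse while leaf 4 was growing, and shoot of 4 weeks, from a growth chamber at 30 °C, had 3 arrays each. Young leaf, the blade of leaf 4 from the greenhouse, had 4 arrays. The labels give no cultivar, genotype or medium additives for any group, and they call the replicates biological. Callus of equal culture age without the transfer was not among the samples, so medium, transfer and culture age cannot be told apart when a later callus is set beside growing callus. Organ and growth place likewise cannot be told apart for shoot.

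Callus in culture and roots share several features that green shoots lack. Both are non-green tissues that live on imported sugar, callus usually being raised on media with auxin and roots being the organ in which auxin directs tip growth and branching. In cereals, roots and cultured cells are also known for secreted peroxidases, chitinase-family proteins and detoxifying glutathione S-transferases, and for the nonsymbiotic hemoglobins and fermentation enzymes that accompany limited oxygen supply.

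The labels were checked against marker genes, as summed deposited intensities per array, a unit in which the 75th percentile of each array is 1. The 8 photosynthesis genes summed to 2.13 to 2.54 in growing callus and 2.49 to 2.80 in root, against 134 to 136 in shoot and 457 to 616 in young leaf. The 20 root genes, mostly transporters and iron-chelator synthases, summed to 22.9 to 50.7 in growing callus and 207 to 230 in root, against 14.5 to 27.0 in shoot and 39.4 to 67.4 in young leaf. Growing callus thus lay well below root on this list. The correlation between replicates of a group, across probe sets, ran from 0.964 to 0.989. Replicate 3 of growing callus stood apart for these members, with a median intensity of 6.13 against 3.91 and 3.81 in replicates 1 and 2, and it was the highest of the 3 arrays for 136 members. Without it, 189 of the 200 members were still chosen. Replicate 2 of shoot was the highest of its group for 143 members, with a member median of 0.211 against 0.164 and 0.168, and 192 members were still chosen without it. Replicate 3 at 6 days was the lowest of its group for 133 members. An excess of poly(A) control RNA is noted in the labels for 3 arrays, each the second replicate, from growing callus and from 2 and 4 days.

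Across the 200 members the score ran from 7.22 to 2.34 on the log2 scale, with a median of 3.17. The array annotation gave 1 gene to 147 members, several genes to 1 and none to 52, and the 147 stand for 139 genes, of which 28 carry a name other than a locus number. Only named genes, and locus numbers where a value leads, are described here. At the lower end, LOC4326578 at rank 200 scored 2.343, and the next probe set, a further one of the member gene LOC4348524, scored 2.341, so the limit falls inside a continuous run of values. Many of the shared transcripts were near the floor in green tissue: 120 of the 200 averaged below 0.274, the median of all values, in both shoot and young leaf. Differences against such levels depend on the constant added, and their order carries little information.

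**Figure D1:**
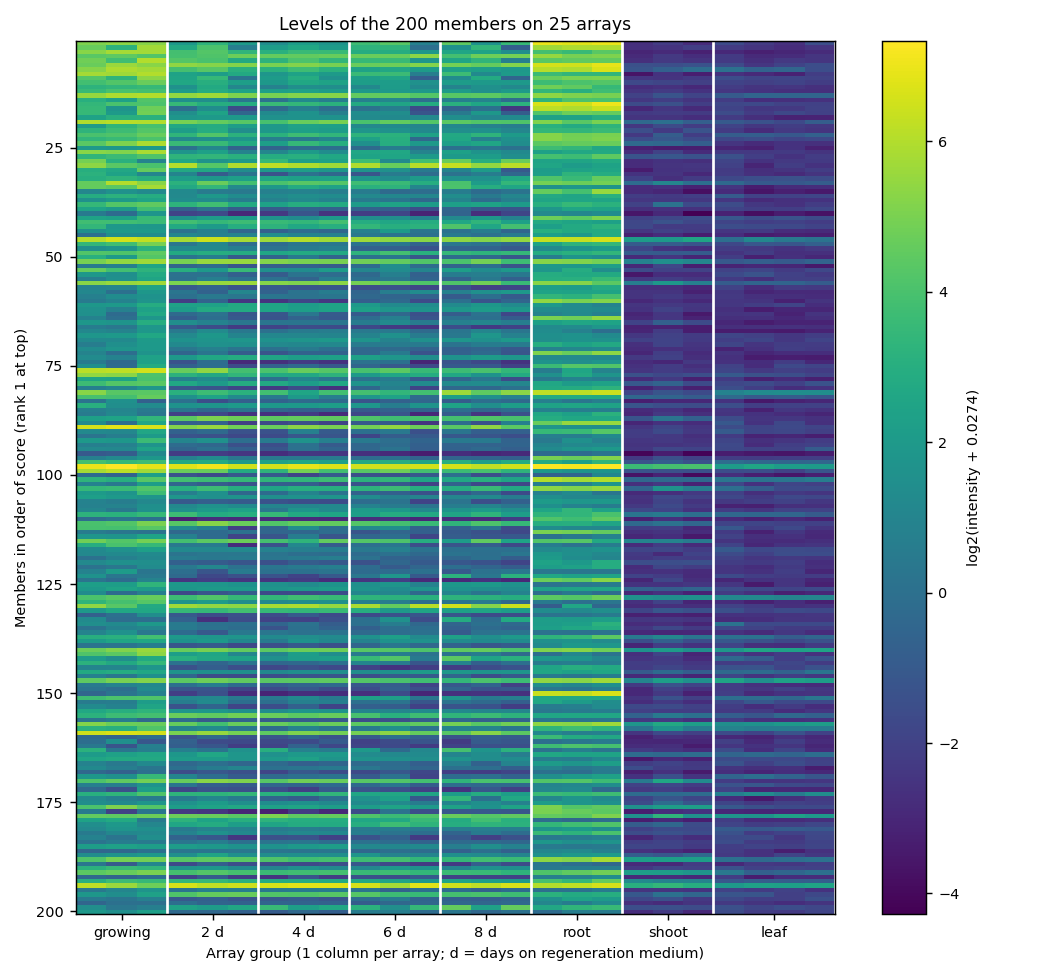
Levels of the 200 members (rows, in order of score) on the 25 arrays (columns, by group), as log2 of the deposited intensity plus the constant. Growing callus and root are the bright columns and shoot and young leaf the dark ones, as the rule required, while the 12 arrays on regeneration medium lie between them, with array medians of 1.09 to 2.91.

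Growing callus and root did not carry these transcripts at equal levels. The log2 difference, growing callus minus root, ran from -6.26 to 5.71 with a median of -0.11. It was at least 1 in favour of growing callus for 40 members and at least 1 in favour of root for 55, and the other 105 lay within 1. The hemoglobins NSHB1 and NSHB2, GH3.2 and IAA9 lay on the callus side, and CPDK2 and the top-scoring LOC4344046 on the root side.

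**Figure D2:**
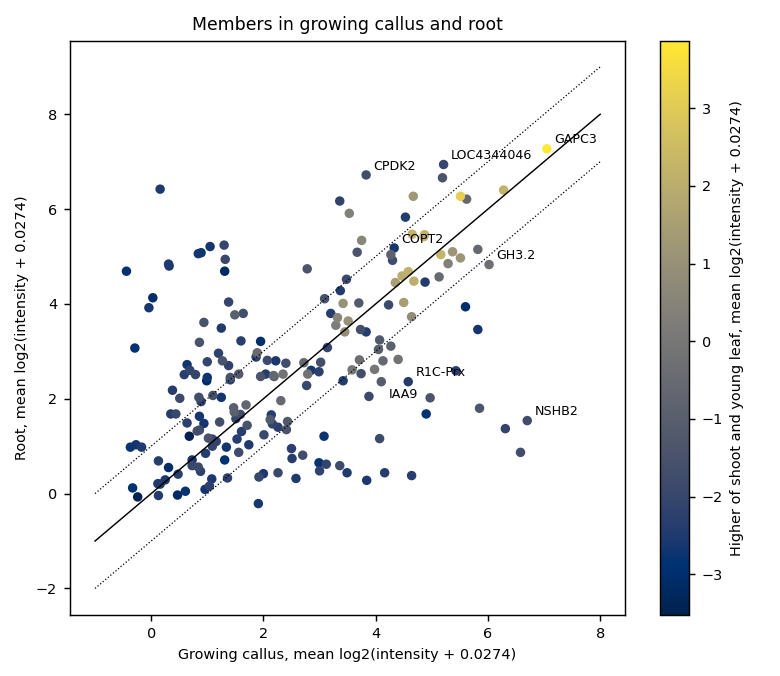
Mean log2 level of each member in growing callus (x axis) and root (y axis), with the diagonal of equality, dotted lines 1 log2 unit to either side, and colour for the higher of the shoot and young leaf means. The 105 members between the dotted lines stand beside 40 to the right and 55 above them, and named points mark members described in the text.

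Among transporters and mineral genes, COPT2, a copper transporter of the plasma membrane, had the fourth highest score. COPT2 read 20.4, 22.2 and 18 in growing callus and 45.4, 31.4 and 33.7 in root, against 0.107, 0.170 and 0.120 in shoot and 0.174, 0.109, 0.116 and 0.153 in young leaf. On regeneration medium it stayed between 14.7 and 39.8 on all 12 arrays, overlapping growing callus at 2 and 8 days. AMT2-2, an ammonium transporter, was a low member, at 0.489 to 2.03 in growing callus and 0.745 to 1.20 in root, against 0.105 to 0.183 in shoot and 0.103 to 0.202 in young leaf. Of 90 genes on a list of mineral transport genes, which does not hold the copper transporters, AMT2-2 was the member, and 81 of the list were tested.

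In central metabolism, CPDK2, a pyruvate orthophosphate dikinase that interconverts pyruvate and phosphoenolpyruvate, was far higher in root. CPDK2 read 10.7, 16.3 and 16.4 in growing callus and 101, 86.7 and 133 in root, against 0.304, 0.353 and 0.203 in shoot and 0.220 to 0.279 in young leaf. Its probe set can detect related transcripts, as its identifier ends in _x_at. GAPC3, a cytosolic glyceraldehyde-3-phosphate dehydrogenase of glycolysis, was a member through a pair of probe sets. The brighter one read 128, 160 and 115 in growing callus and 156, 145 and 162 in root, against 12.6, 15.1 and 16.3 in shoot and 4.11 to 5.80 in young leaf, so GAPC3 was well expressed in green tissue too. The nonsymbiotic hemoglobins NSHB1 and NSHB2, which scavenge nitric oxide when oxygen is short, were far higher in growing callus than in root. NSHB2 read 95.6, 116 and 101 in growing callus and 3.29, 2.85 and 2.57 in root, against 0.158, 0.252 and 0.158 in shoot and 0.242 to 0.309 in young leaf. Both genes lie on chromosome 3 and their probe sets may share related sequence, since that of NSHB1 ends in _s_at. Of 14 low-oxygen genes on the array, NSHB1 and NSHB2 were the members. One probe set each of Adh2 and PDC (LOC4339066) scored above the limit and was left out by the rule, and the rest of the list scored below it.

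Among hormone genes, 3 of 59 auxin genes were members. GH3.2, an enzyme that inactivates auxin by joining it to amino acids, read 62.0, 67.7 and 64.8 in growing callus and 34.8, 20.4 and 32.5 in root, against 0.792, 0.981 and 0.572 in shoot and 0.283 to 0.531 in young leaf. The Aux/IAA repressor gene IAA9 read 13, 18.8 and 20.6 in growing callus and 6.04, 4.25 and 5.17 in root, against 0.459, 0.655 and 0.289 in shoot and 0.217 to 0.363 in young leaf. Aux/IAA proteins hold auxin response factors in check until auxin triggers their breakdown. The other repressor, IAA20 on chromosome 6, was at 2.93 to 5.67 in growing callus and 5.64 to 5.82 in root, against 0.159 to 0.165 in shoot and 0.110 to 0.160 in young leaf. LOGL1, of the family that frees active cytokinins from their nucleotides, and BRL1, a relative of the brassinosteroid receptor, were members of lower level. LOGL1 was at 2.28 to 3.32 in growing callus and 2.71 to 3.90 in root, against 0.216 to 0.287 in shoot and 0.457 to 0.534 in young leaf.

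Regulators formed a small group of modest level. OsWOX6, a WOX homeobox factor, was at 6.40 to 9.80 in growing callus and 1.22 to 1.5 in root, against 0.191 to 0.209 in shoot and 0.119 to 0.182 in young leaf. NAC45, a NAC factor, was at 2.20 to 5.33 in growing callus and 2.42 to 3.93 in root, against 0.163 to 0.259 in shoot and 0.224 to 0.514 in young leaf. The MADS-box factor gene MADS25 was uneven in growing callus, at 0.576 to 2.89, and was at 1.15 to 1.63 in root. CBL2, a calcium sensor of the calcineurin B-like family, was at 0.714 to 0.997 in growing callus and 1.71 to 2.28 in root. OsPP2C45, of the protein phosphatase 2C family, was at 20.5 to 54.4 in growing callus and 2.82 to 3.56 in root, and another probe set of this gene scored 0.84 rather than 4.53, so its 2 probe sets disagree. The probe set annotated to the histone deacetylase gene HDA703 carries the same design number as those of its neighbour LOC4328720, and which gene it reports is uncertain.

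Wall and phenolic genes included CAD7, a cinnamyl alcohol dehydrogenase of lignin precursor synthesis. CAD7 read 9.82, 12.8 and 18.6 in growing callus and 10.7, 10.2 and 12.1 in root, against 0.329, 0.179 and 0.385 in shoot and 0.112 to 0.182 in young leaf. It was the only member among 27 lignin and secondary wall genes on the array. GLU5, an endo-glucanase of the GH9 family, rested on uneven arrays, with 0.752, 0.341 and 4.56 in growing callus and 2.06, 2.42 and 0.796 in root. R1C-Prx, a class III peroxidase, was higher in callus than in root, at 41.6, 20.8 and 15.9 in growing callus and 5.83, 4.33 and 5.28 in root, against 0.118, 0.145 and 0.156 in shoot and 0.0931 to 0.218 in young leaf.

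The other named members belong mainly to defence and stress families. Chib3H-a, also called RIXI and XIP-I, encodes a chitinase-family protein that inhibits microbial xylanases. It read 20.8, 34.3 and 60.6 in growing callus and 21, 24.5 and 25.8 in root, against 0.802, 0.741 and 0.544 in shoot and 0.112 to 0.150 in young leaf. GST1, a glutathione S-transferase that detoxifies electrophiles, was at 24.1 to 64.0 in growing callus and 26.2 to 30.5 in root, against 0.876 to 2.05 in shoot and 0.444 to 0.792 in young leaf. PIK6-NP, a nucleotide-binding leucine-rich repeat gene of the Pik blast-resistance locus, was low throughout, at 1.45 to 2.13 in growing callus and 2.08 to 2.84 in root, against 0.174 to 0.385 in shoot and 0.114 to 0.194 in young leaf. LEA19, a late embryogenesis abundant gene, was uneven, reading 42.2, 19.9 and 6.81 in growing callus and 0.515, 6.04 and 0.727 in root, against 0.111 to 0.129 in shoot and 0.128 to 0.223 in young leaf. The small heat shock gene hsp17.9 was at 27.2 to 72.0 in growing callus and 65.0 to 96.1 in root, against 7.74 to 10.5 in shoot and 3.86 to 5.67 in young leaf. HSP26.7, another small heat shock gene, was at 1.06 to 2.47 in growing callus and 4.59 to 7.64 in root. OsNrx1-1, a nucleoredoxin that reduces disulphides, was steady, at 6.23 to 7.57 in growing callus and 5.13 to 6.04 in root. The gene cap2 was at 16.0 to 25.2 in growing callus and 29.1 to 37.9 in root.

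Of the 10 highest scores, 5 belonged to probe sets with no gene, 4 to genes known by a locus number and 1 to COPT2. LOC4344046, ranked first, read 33.8, 40.6 and 37.1 in growing callus and 129, 112 and 127 in root, against 0.130, 0.187 and 0.119 in shoot and 0.135 to 0.334 in young leaf. LOC4348769 was at 13.6 to 65.0 in growing callus and 20.6 to 22.8 in root, and LOC4331044 at 26.0 to 47.9 in growing callus and 90.2 to 120 in root. LOC4340403 was the most uneven of the leading genes, at 3.34 to 27.8 in growing callus and 61.1 to 86.1 in root. LOC4346052, LOC4328720, LOC4339960 and LOC4351197 completed the 10 leading single-gene members with COPT2 and CPDK2.

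**Figure D3:**
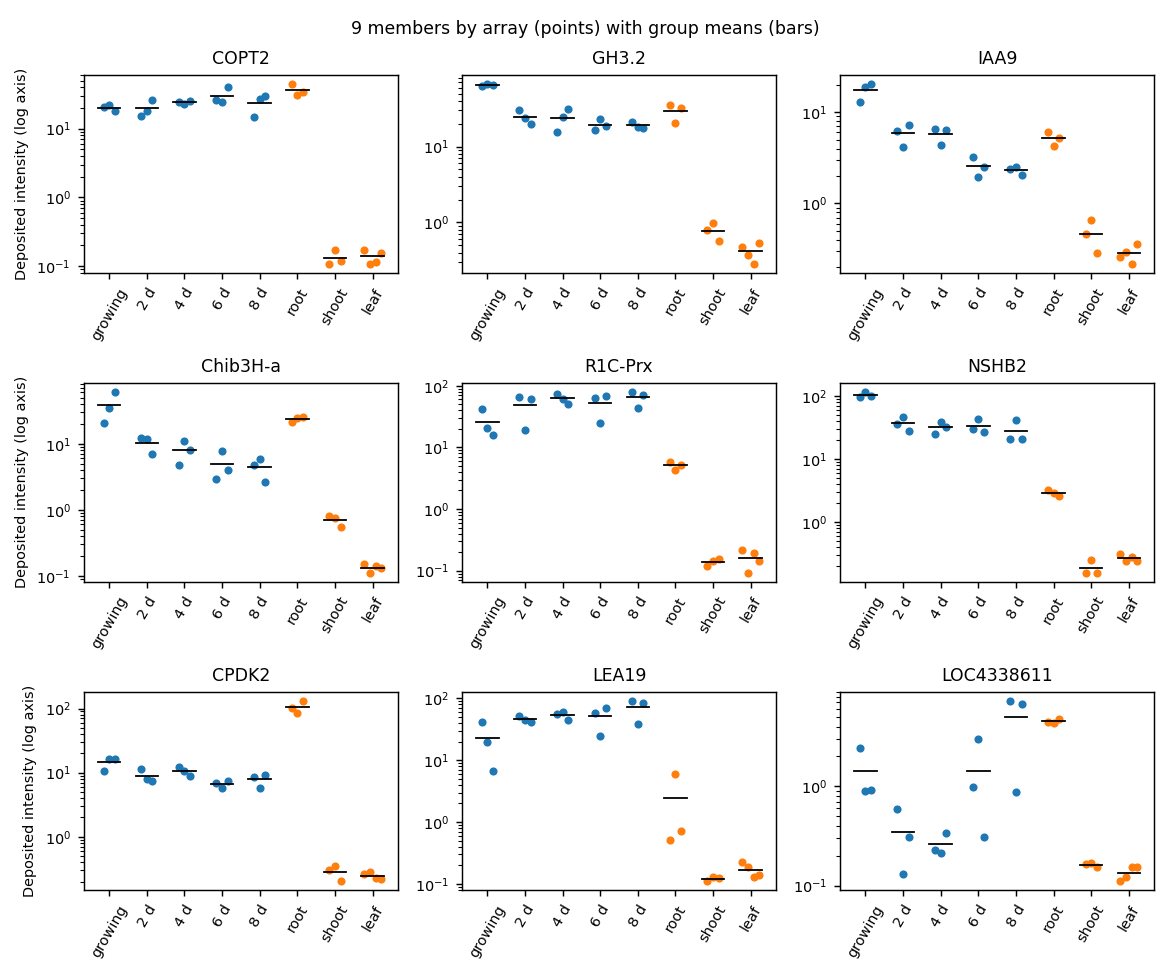
Deposited intensity (log axis) of 9 members on every array (points, callus in blue and organs in orange) with group means (bars), for growing callus, callus at 2, 4, 6 and 8 days, root, shoot and young leaf. COPT2 stayed between 14.7 and 39.8 on regeneration medium, IAA9 and Chib3H-a were lower at 8 days than at 2 days, and LOC4338611 was high on 2 of the 3 arrays at 8 days.

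After transfer to regeneration medium most members stayed above green tissue but below growing callus. At 2, 4, 6 and 8 days, 179, 178, 175 and 177 of the 200 members had every array of the time above every shoot and young leaf array. For 163 this held at all 4 times, and for 13 at none. The median member lay 1.25, 1.38, 1.40 and 1.55 log2 units below growing callus at 2, 4, 6 and 8 days, where the median of all 37212 probe sets tested lay 0.01 above and 0.03, 0.09 and 0.17 below. Relative to the higher of the shoot and young leaf means, the median member was at 2.71 log2 units at 2 days and 2.37 at 8 days. The median of all probe sets tested was at -0.19 and -0.39. These are descriptions, because a member had to be high in growing callus and low in shoot and young leaf to be chosen. At 2 days 112 members were at least 1 log2 unit below growing callus and 8 at least 1 above, and at 8 days the counts were 138 and 14. None of the member counts in this paragraph was made over all probe sets. In bulk tissue, fewer cells of a type and less RNA per cell cannot be told apart.

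The tests compared times on regeneration medium, on quantile normalized log2 values in 1 limma fit over all 25 arrays. Calls needed a Benjamini-Hochberg adjusted p under 0.05 over all 37212 probe sets and a change of at least 2-fold. All 200 members entered, each having passed the filter on low values through growing callus and root alone, so passing did not hinge on the times compared.

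Between 2 and 8 days, falls outnumbered rises among the shared transcripts. Of the 200 members, 27 (13.5%) were lower at 8 days than at 2 days, where 0.978% of all probe sets tested were lower. Another 8 (4%) were higher, where 3.89% of all were higher, so the share of rises was near the background and the share of falls was above it. The median log2 difference of the members was -0.32, with 139 negative and 61 positive, and that of all probe sets was -0.06. The median member stood at 1.97 to 2.91 on the 2-day arrays, whereas the medians of all probe sets on the same arrays lay between 0.237 and 0.287. The part of this higher level in the share called was not tested. By limma, the count of falls was 17 without 2-day replicate 2, 15 without 8-day replicate 3 and 15 without the 3 arrays of excess poly(A) controls. Over all probe sets tested, falls were 308, 298 and 306 in these settings, beside 364 with all arrays. The count of rises was 5 without 2-day replicate 2, 4 without 8-day replicate 1, 13 without 8-day replicate 2 and 4 without 8-day replicate 3. Over all probe sets tested, rises were 1298, 976, 1984 and 1143 in these settings, beside 1448 with all arrays.

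**Figure D4:**
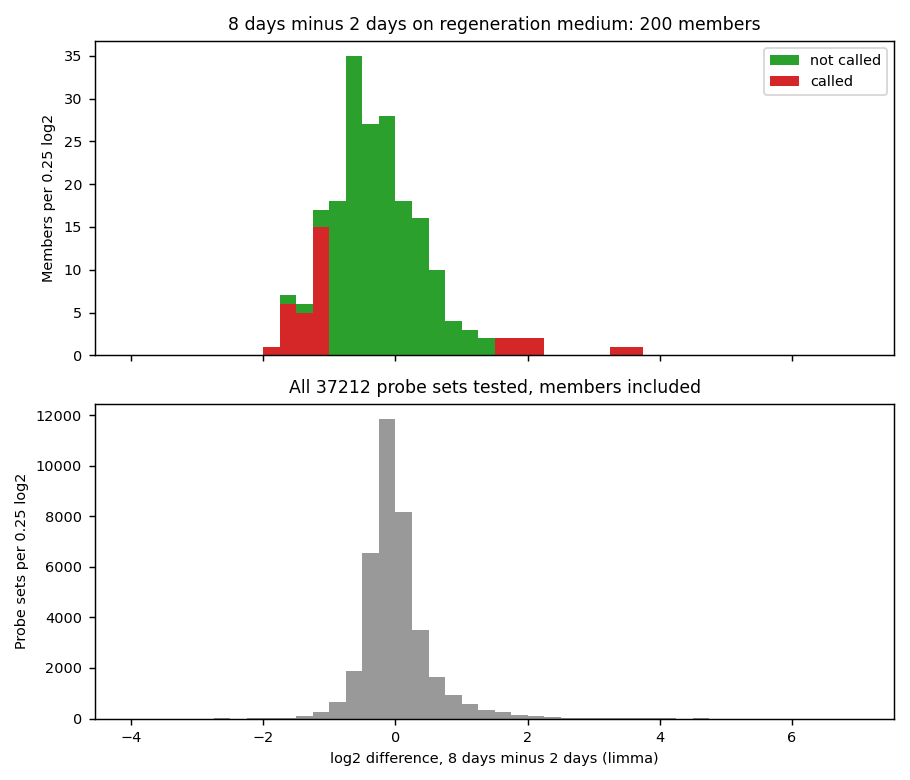
Distribution of the log2 difference, 8 days minus 2 days on regeneration medium, for the 200 members (top, called members in red) and for all 37212 probe sets tested (bottom). The members centre on -0.32 and all probe sets on -0.06, and the 27 called falls outnumber the 8 called rises.

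The falls took in 22 genes and 5 probe sets with no gene, with log2 sizes of 1.0 to 1.77. IAA9 read 2.38, 2.49 and 2.03 at 8 days, against 6.15, 4.11 and 7.30 at 2 days, and its arrays did not overlap (log2 -1.27, SE 0.27, adjusted p = 0.0026, limma). LOC4323929 read 2.10, 1.77 and 1.54 at 8 days, against 6.30, 7.19 and 4.56 at 2 days (log2 -1.68, SE 0.28, adjusted p = 0.00031, limma). Both were below their 2-day range on every 8-day array. LOC4326487 (log2 -1.61), LOC4342013 (-1.40), LOC4344266 (-1.34) and LOC4351721 (-1.20) fell as well. PIK6-NP read 0.443, 0.673 and 0.210 at 8 days, against 0.977, 1.54 and 0.841 at 2 days (log2 -1.28, SE 0.30, adjusted p = 0.0051, limma), and it lost its call without 8-day replicate 3 and without the arrays of excess poly(A) controls. LOC4339960 (log2 -1.0) lay at the fold limit and lost its call in 5 of 13 alternatives. The probe set at rank 3, which has no gene, also fell (log2 -1.56, adjusted p = 0.0014, limma), as did that at rank 7 (-1.54), which has no gene either but carries the design number of the PDC1 probe set left out by the rule; both were singled out after their values were seen.

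The rises took in 6 genes and 1 probe set with no gene, and several rested on uneven arrays. LOC4338611 read 7.31, 0.880 and 6.82 at 8 days, against 0.597, 0.130 and 0.311 at 2 days, with replicate 2 far below its companions at 8 days (log2 3.54, SE 0.69, adjusted p = 0.0012, limma). A second probe set of the gene gave a log2 difference of 3.39, and across 13 alternatives the first ranged from 2.91 to 4.53 and kept its call. LOC4334643 read 49.6, 22.2 and 40.2 at 8 days, against 8.61, 12.9 and 8.69 at 2 days (log2 1.91, SE 0.32, adjusted p = 0.00027, limma). Its direct neighbour on chromosome 3, LOC4334644, read 25.7, 8.00 and 26.1 at 8 days, against 6.42, 3.16 and 4.12 at 2 days, and its call (log2 2.09, SE 0.69, adjusted p = 0.045, limma) was lost in 6 of 13 alternatives. For all 3 genes, 8-day replicate 2 was the lowest of its group. LOC4344051 read 1.93, 1.16 and 1.83 at 8 days, against 0.273, 0.409 and 0.535 at 2 days (log2 1.96, SE 0.35, adjusted p = 0.0006, limma). LOC4329812 (log2 2.18) and LOC4349324 (1.60) were the others with a gene, and they lost their calls in 6 and 4 of 13 alternatives.

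Of the 29 probe sets of named genes, 3 fell (IAA9, PIK6-NP and Chib3H-a) and the other 26 were not called by limma. Among the 26, COPT2 had a log2 difference of 0.34 (SE 0.22), GH3.2 of -0.25 (SE 0.26), R1C-Prx of 0.54 (SE 0.41) and NSHB2 of -0.29 (SE 0.25). HSP26.7 (log2 -0.99, adjusted p = 0.025, limma), OsWOX6 (-0.61, adjusted p = 0.023, limma) and CBL2 (-0.70, adjusted p = 0.025, limma) passed the adjusted p but not the fold. A missed threshold does not show that the level stayed the same.

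The neighbouring steps held 8 calls, all at 6 days against 4 days. There, 6 members (3%) were higher, where 1.55% of all probe sets were higher, and 2 (1%) were lower, where 0.0403% were lower. LOC4344051 read 1.99, 1.97 and 0.785 at 6 days, against 0.287, 0.296 and 0.315 at 4 days (log2 2.16, SE 0.35, adjusted p = 0.00085, limma). LOC4349324 (log2 1.79) rose too, reading 0.304, 1.06 and 0.328 at 6 days, against 0.0790, 0.178 and 0.104 at 4 days. These 4-day values lay below the medians of their arrays (0.256, 0.285 and 0.224), so the size of the rise depends on the constant added. The call was lost in 6 of 13 alternatives: a larger constant (log2 1.29), the replicate block, each 4-day array left out and 6-day replicate 2 left out. In root LOC4349324 stood far higher, at 21.4 to 32.2. IAA9 read 3.25, 1.94 and 2.51 at 6 days, against 6.55, 4.39 and 6.38 at 4 days (log2 -1.13, SE 0.27, adjusted p = 0.022, limma). LOC4351186 (log2 -1.31) was the other fall. At this step IAA9 lost its call in 3 of 13 alternatives and LOC4351186 in 5. The last-ranked member, LOC4326578, rose by 1.03, just past the fold limit. The count of rises was 18 without 6-day replicate 3, the array lowest for most members, and 1 without 4-day replicate 1, 4-day replicate 3 or 6-day replicate 2. Over all probe sets tested, rises were 929, 338, 488 and 258 in these settings, beside 578 with all arrays. The count of falls was 0 without 4-day replicate 3 or 6-day replicate 2, 1 without 4-day replicate 1, 4-day replicate 2 or 6-day replicate 3, and 5 without 6-day replicate 1. Over all probe sets tested, falls ran from 5 to 21 when 1 array was left out, beside 15 with all arrays.

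Between 2 and 4 days limma called 0 members in either direction, where 0.00537% of all probe sets were higher and 0% lower, and 8 members (4%) had an unadjusted p under 0.05, near the 3.06% of all probe sets that did. All 8 were lower at 4 days. Between 6 and 8 days limma again called 0 members, where 0.00537% of all probe sets were higher and 0% lower, and 19 members (9.5%) had an unadjusted p under 0.05, where 6.32% of all probe sets did. Of the 19, 11 were higher at 8 days. Without 8-day replicate 2, 5 members (2.5%) were higher at 8 days than at 6 days, and so were 292 of all probe sets (0.785%). The steps share arrays with each other and with the whole interval and are not independent of it.

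Other genes of the same pathways were counted over the same interval, 8 days against 2 days, in which 3.89% of all probe sets rose and 0.978% fell. Of 58 auxin genes tested, 5 fell and 2 rose, with a list median of -0.25 beside -0.06 over all probe sets. The falls were IAA26 (log2 -1.98), IAA12 (-1.70), IAA4 (LOC4327919, -1.43), GH3-8 (-1.31) and the member IAA9, and the rises were OsYUCCA1 (1.48), of the auxin synthesis family, and IAA25 (1.11). Of 14 root regulators, 4 fell and 1 rose: the WOX genes OsWOX9 (-1.79) and OsWOX7 (-1.61), OsGRAS-38 (-1.5) and OsSCR1 (-1.30) fell and AS2 (1.94) rose. Of 81 mineral transport genes, 5 rose, among them the iron-chelator synthase gene NAS3 (1.64), and AMT1 (-1.19) fell. Of 24 pathogenesis-related and chitinase genes, Cht1 (1.61) and Cht4 (1.35) rose and the member Chib3H-a fell. Of 14 low-oxygen genes OsSUS4 (1.20), a sucrose synthase, rose. Of 24 lignin and secondary wall genes, CESA7 (1.21), a secondary wall cellulose synthase, rose and CCR1 (-1.86), left out of the members by the rule, fell. Among 6 glutathione S-transferases GSTZ5 (2.22) rose.

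Markers of other tissue moved over the same days. The summed photosynthesis genes were at 12.4 to 16.4 at 8 days, against 2.63 to 3.07 at 2 days, with 7 of 8 genes above the median of all values at 8 days and 4 at 2 days. The sum was 134 or more in shoot. The 7 dividing-cell genes summed to 17.5 to 24.8 at 8 days, against 37.1 to 54.5 at 2 days, all 7 above that median at both times. The 2 shoot meristem genes, OSH1 and HOS9, summed to 1.19 to 1.36 at 8 days, against 0.354 to 0.425 at 2 days. Their sum was 1.81 to 2.09 in root and 11.7 or more in shoot. The 20 root genes summed to 22.4 to 38.9 at 8 days, against 13.6 to 16.1 at 2 days. The 12 embryo and seed genes, 1 of them the member LEA19, summed to 170 to 441 at 8 days, against 130 to 186 at 2 days, so that the times overlapped. The part of these tissues in the member changes was not tested.

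Some members lay close together in the genome. By gene order in RefSeq assembly ASM3414082v1, 37 of the 139 genes lay in 15 runs, each run joining members at most 10 gene positions apart, and 13 of the runs were pairs. Runs among other genes on the array were not counted, so these numbers have no background. The pair of HDA703 and LOC4328720 rests on probe sets of the same design number. Chromosome 11 held 9.35% of member genes and 4.73% of all genes with a probe set, and chromosome 12 held 2.16% of member genes and 5.07% of all. Of the 13 member genes on chromosome 11, 8 lay in a single stretch of 10 consecutive genes: LOC4351186, LOC4351188, LOC4351190, LOC4351191, Chib3H-a (LOC4351194), LOC4351195, LOC4351197 and LOC4351198. LOC4351188 carries the synonym chitinase, as does Chib3H-a, and the non-member Chib3H-h (LOC4351187) in the stretch scored 1.01. The other non-member, LOC4351192, scored 0.26. Its probe set carries the same design number as the member at rank 47, which has no gene and scored 4.03. Which gene that member reports is uncertain.

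Of the 8 genes of the stretch, 4 fell between 2 and 8 days, and the other 4 were not called. Over the same interval 13.5% of all members and 0.978% of all probe sets tested fell. Their summed intensity was 71.6, 79.0 and 186 in growing callus, 14.5 to 31.0 at 2 days, 12.1 to 26.2 at 4 days, 8.11 to 15.1 at 6 days and 6.56 to 13.1 at 8 days, and 41.8 to 61.2 in root, against 1.45 to 1.90 in shoot and 1.08 to 1.65 in young leaf. Growing callus replicate 3 was the highest array for all 8. All 8 had negative differences between 2 and 8 days, as did 139 of the 200 members. LOC4351198 read 1.08, 1.49 and 0.815 at 8 days, against 4.64, 5.87 and 2.07 at 2 days (log2 -1.77, SE 0.39, adjusted p = 0.0034, limma). LOC4351186 read 0.639, 0.631 and 0.470 at 8 days, against 2.35, 2.19 and 1.65 at 2 days (log2 -1.74, SE 0.32, adjusted p = 0.00066, limma). For 8 days against 2 days, these 2 kept their calls in all 13 alternatives. LOC4351195 (log2 -1.57) and Chib3H-a (-1.18, SE 0.38, adjusted p = 0.041, limma) lost theirs in 5 and 6 of 13. The genes differed in root: LOC4351197 was at 9.58 to 17.1 in root and 5.19 to 18 in growing callus, while LOC4351198 was at 0.921 to 2.05 in root and 17.7 to 40.8 in growing callus. Neighbouring family members can share probe sequence. None of the 8 probe sets carries the _s_at or _x_at ending that marks designs known to detect several transcripts.

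**Figure D5:**
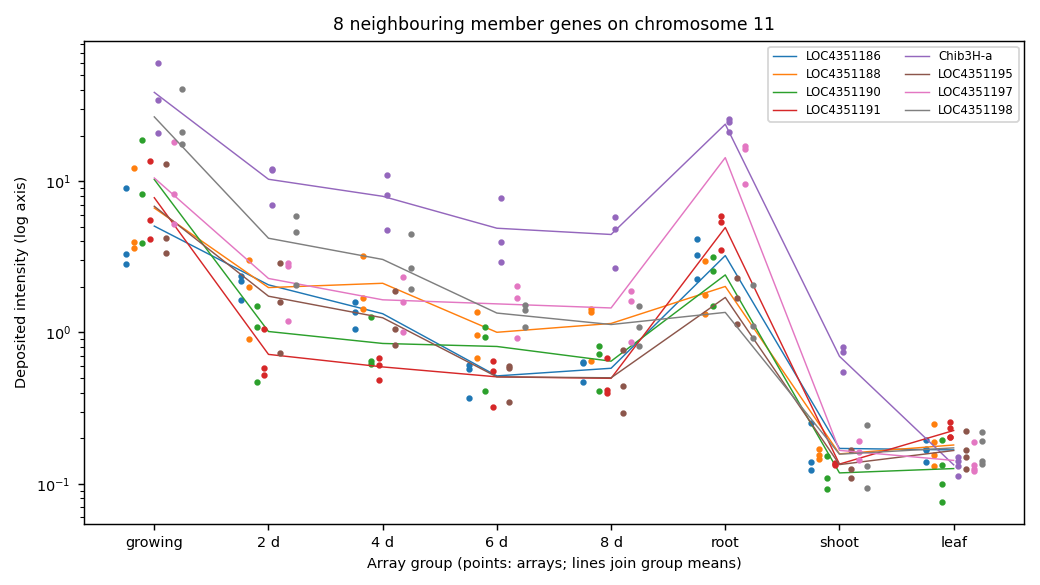
Deposited intensity (log axis) of the 8 neighbouring chromosome 11 members on every array (points), with lines joining the means of growing callus, callus at 2, 4, 6 and 8 days, root, shoot and young leaf. All 8 are highest on growing callus replicate 3 among the growing callus arrays. All 8 lie lower at 8 days than at 2 days in the fit, as do 139 of the 200 members, and 4 are called.

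The next largest run, on chromosome 7, held the peroxidase R1C-Prx, LOC4344046 and LOC4344051 among 8 genes in order. All 3 had positive differences at 8 days against 2 days, as did 61 of the 200 members, and 1 was called. Among all members 4% were called higher, and among all probe sets tested 3.89%. R1C-Prx was at 44.2 to 79.0 at 8 days, against 19.2 to 66.4 at 2 days, with no call. LOC4344046 read 22.1, 3.08 and 11.7 at 8 days, against 3.75, 9.31 and 4.18 at 2 days, with arrays that overlapped and no call. LOC4344051 was the member called. On chromosome 1 the adjacent LOC4324968 and LOC9269196 were both higher in root than in growing callus: LOC4324968 averaged 2.10 in growing callus and 34.5 in root, and LOC9269196 averaged 1.98 in growing callus and 33.9 in root. LOC4348769 and LOC4348771 on chromosome 10 were another pair.

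The score of further probe sets of the same genes is given as a description, since it comes from the arrays that chose the members and some designs overlap those of members. Of the 139 genes, 22 had 27 more probe sets that were not members. Of these, 21 scored above 0 and 8 scored at least 1, with a median of 0.25 and a lowest value of -0.97. Among all probe sets that passed the filter on low values, which some of the 27 did not, 20.7% scored above 0 and the median was -0.49. NSHB1 had further probe sets scoring 1.38 and 1.53, and PIK6-NP one scoring 1.55. Many of the others were dim. GAPC3, for example, had a probe set scoring 0.20 whose mean intensity was 0.235.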

How the data were processed

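The values are linear intensity values deposited by the authors, 1 per probe set and array, in which the 75th percentile of each array is 1. The submitters' processing notes name GCOS 1.3; background, summary and detection steps are not given in the sources used here. Array precision is limited by 3 or 4 arrays per group.

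The members and gene lists were chosen with earlier results of these data known. The 187 control probe sets were left out, a constant of 10% of the overall median (0.274) was added before log2, and for tests the values were quantile normalized and kept where 3 or more arrays exceeded their own median (37212 of 57194). All groups entered 1 limma fit (version 3.58.1, R 4.3.3; 17 residual and 5.40 prior degrees of freedom). The fit was also run on values simulated from its own means and spreads, which cannot show how uneven arrays act on it. Genes came from the array annotation and RefSeq assembly ASM3414082v1, used for names, chromosome and gene order. Named genes were every named member, the 10 largest called rises and falls at 8 against 2 days, up to 2 per step and direction, the 10 highest scores and the last-ranked member with its successor. Each p-value sets a difference of group means against the spread between arrays, estimated over all groups. Alternatives changed the pseudocount, normalization, filter, arrays, replicate block, variance trend and threshold. Probe, promoter and protein sequences were not analysed here.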

Additional observations from a re-analysis of the deposited data

Results flagged for a closer look

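Of 53 member probe sets described by gene, 3 had 1 of the 4 young leaf arrays far from the others. GAPC3, by its brighter probe set, read 5.80 on its highest array, against 4.11 to 4.39 on the other 3. GLU5 read 0.230 on its highest array, against 0.0921 to 0.101. LOC4339960 read 0.475 on its lowest array, against 0.680 to 0.699. Chance places about 1 in 20 such groups past the limit, so 3 of 53 is about what chance gives. The causes were not tested.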

How the results depend on the processing

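At 8 days against 2 days, 27 members fell and 8 rose. A fit of the 12 regenerating callus arrays alone gave 25 falls and 6 rises, beside 346 and 1329 over all probe sets tested. Leaving out 1 array of the pair gave 15 to 38 falls and 4 to 13 rises, leaving out the 3 arrays with excess poly(A) controls gave 15 falls, and calling by adjusted p alone gave 44 falls (22%, beside 6.55% of all probe sets) and 9 rises (4.5%, beside 7.72%). Over all probe sets tested, leaving out 1 array gave 242 to 640 falls and 976 to 1984 rises, beside 364 and 1448 with all arrays. At 6 days against 4 days, 6 rose and 2 fell. Leaving out 1 array gave 1 to 18 rises and 0 to 5 falls; the larger pseudocount, or the 12 regenerating callus arrays alone, gave 3 rises; the arrays without excess poly(A) controls gave 1 fall, and adjusted p alone 5 falls (2.5%, beside 0.269%). Over all probe sets tested, leaving out 1 array at this step gave 258 to 929 rises and 5 to 21 falls. At 8 days against 6 days leaving out 1 array gave 0 to 5 rises, and 1 to 292 over all probe sets tested. The causes of these shifts were not tested. Of 299 values followed for 23 gene results, 49 lost the call and 0 reversed. Same-numbered arrays at 8 and 2 days correlated at 0.046, -0.058 and 0.075 in their deviations from the group means, at 4 and 2 days at 0.224, 0.390 and 0.073, at 6 and 4 days at 0.091, 0.117 and -0.066, and at 8 and 6 days at 0.317, 0.079 and 0.281. Differently numbered arrays ran from -0.205 to 0.139 at 8 and 2 days and from -0.359 to 0.209 at 4 and 2 days. They ran from -0.235 to 0.151 at 6 and 4 days and from -0.324 to 0.083 at 8 and 6 days. In no tested comparison did all 3 same-numbered values pass 0.1, so the numbers were not taken to pair the samples. This does not show that the samples were unpaired. Growing callus and 4 days, not tested here, had 0.209, 0.190 and 0.125 for the same numbers. With the replicate block, 27 members fell and 10 rose at 8 against 2 days, and 2 fell and 4 rose at 6 against 4 days. Membership kept 187 probe sets with the larger pseudocount, 191 after quantile normalization and 187 to 197 without 1 array. Taking only the best probe set of each gene kept 139, which is the number of member genes and was fixed in advance. Levels near the array median are limited by background, which the deposited values do not let be separated.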
